A study of Mus musculus with 4 samples.

Results

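Type IC neurons are one of the subtypes of type I spiral ganglion neurons, the myelinated cells that receive signals from inner hair cells and project to the brainstem. The cells described here are those given the subtype Type IC in the authors' deposited cell annotation, 2104 of 6713 annotated neurons, with 412, 686, 539 and 467 cells in mice 1 to 4. They were compared with the 2384 cells annotated as type IA and the 1625 annotated as type IB. The cells came from 4 wild-type male CBA/CaJ mice aged 9 weeks, an inbred strain, and no animal carried an allele or received a treatment. The modiolus, which houses the spiral ganglion, was dissected from the temporal bones with neighbouring parts of the cochlear duct, the tissue of a mouse was kept as 1 pool, and the cells were dissociated with collagenase IV and then papain, each for 30 min. They were captured in droplets 2.5 h after the animals were killed, with the v2 chemistry of 10x Genomics, in which each captured transcript receives a barcode of its cell and a molecular tag (UMI) and is read near its 3′ end. Each mouse is 1 replicate, so the values hold for young adult males of 1 strain, and cells of a mouse are not counted as replicates. The sources used here do not give how the authors assigned the subtypes.

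Type I neurons differ in spontaneous firing rate and in the loudness range over which they respond. In mouse, molecular subtypes have been described that lie along this range, with calretinin-rich neurons at one end and neurons marked by Lypd1 and Pou4f1 at the other. Calretinin and calbindin are calcium buffers, and POU4F1 (also called BRN3A) is a homeodomain transcription factor of sensory neurons.

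Type IC neurons took 33.3%, 30.7%, 31.3% and 30.7% of the annotated neurons of mice 1 to 4, 31.5% ± 1.22 (SD, n = 4). The exact (Clopper-Pearson) 95% interval was 30.7% to 36.0% in mouse 1 and 28.4% to 33.05% in mouse 4, and it covers counting error only. Among type I cells alone the share was 34.6% ± 0.791. The type IC cells of a mouse had a median of 19884, 14178.5, 16304 and 12843 UMIs, so mouse 1 was the deepest library and mouse 4 the shallowest. In all, 29505582 UMIs of type IC cells were counted. Mitochondrially encoded transcripts took 7.16% to 7.76% of type IC UMIs per mouse, against a mean of 9.22% in type IB and 10.6% in type IA. Among the 6713 cells 26 barcodes occurred in more than 1 mouse, and 16 type IC cells carried one of them. Without those cells 3361 genes, against 3389 with them, passed the test between type IC and the mean of types IA and IB.

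The 5 marker genes given for type IC all stood highest in the cells that carry the label. They were part of what is known of this subtype, so their levels check the label and are no separate finding. Levels are given in CPM, a gene's UMIs per 1000000 UMIs of the summed cells of a subtype in a mouse. Lypd1 encodes a membrane-anchored protein of the Ly6 family that modulates nicotinic acetylcholine receptors, and the gene lies on GRCm38 chromosome 1, 125867622 to 125913101, minus strand. It stood at 3189.7, 2941, 3028 and 2654 CPM in type IC of mice 1 to 4, against 152 to 238 in type IB and 86.2 to 138 in type IA. The groups did not overlap, and Lypd1 held 87718 type IC UMIs, by far the most of the 5 markers.

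Pou4f1 (chromosome 14, 104461676 to 104467999, minus strand) stood at 166, 164, 161 and 178 CPM in type IC. Type IB lay between at 30.7 ± 1.82 CPM (SD, n = 4) and type IA was lowest at 8.03 ± 0.521. The transcription factor gene was thus graded over the subtypes, with type IB nearer to type IA than to type IC on the linear scale. Grm8 (chromosome 6, 27275119 to 28135178, minus strand), which encodes a group III metabotropic glutamate receptor, stood at 47, 40.8, 40.5 and 39.9 CPM, against 4.05 ± 1.75 in type IB and 2.25 ± 0.37 in type IA. Mouse 1 was highest for Grm8 in type IC and also in type IB, where it stood at 6.61 CPM. Cd164l2 (chromosome 4, 133212131 to 133224555, plus strand), a CD164-like membrane protein gene, stood at 152, 168, 196 and 186 CPM, and its levels in type IB (18.7 to 28.7) and type IA (16.1 to 25.4) overlapped each other. Ccdc109b, now named Mcub (chromosome 3, 129914960 to 129970206, minus strand), encodes a subunit of the mitochondrial calcium uniporter that lowers its conductance. It stood at 76.2, 93.1, 77.9 and 80.7 CPM in type IC, 5.78 ± 0.296 in type IB and 4.31 ± 0.888 in type IA. All 5 genes had every type IC mouse above every type IA and IB mouse, which held for 5.21% of the 13005 genes tested.

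**Figure D1:**
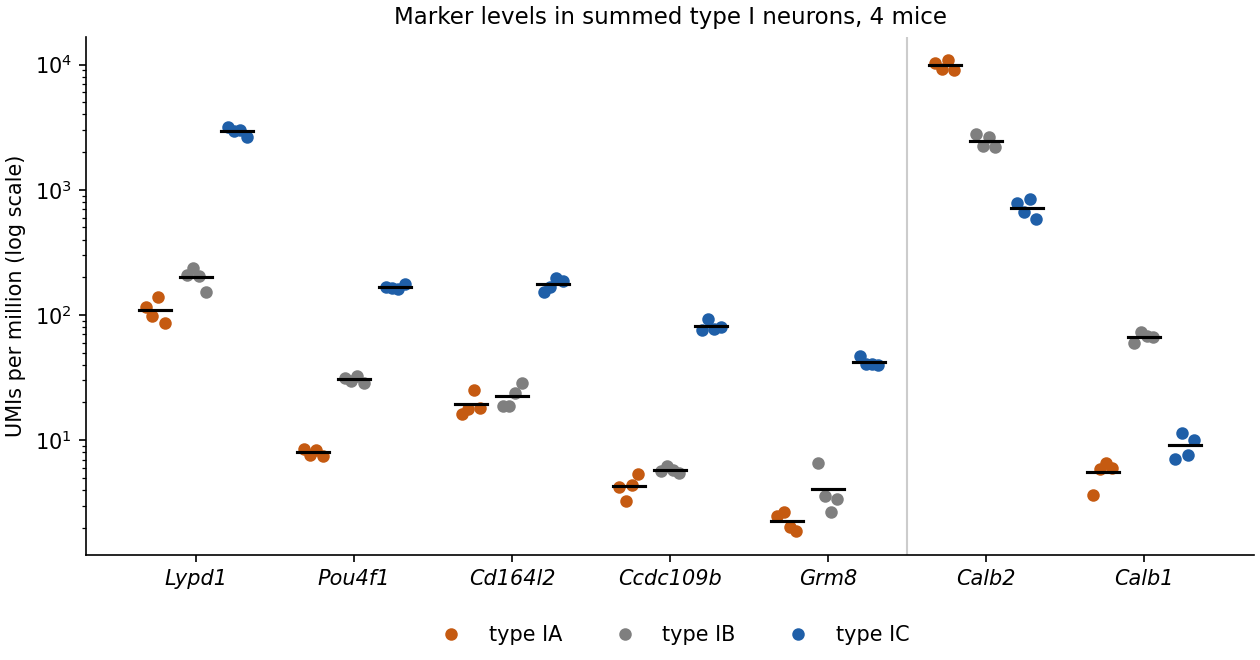
Levels of the 5 type IC markers and of the calretinin gene Calb2 and the calbindin gene Calb1 in the summed cells of each subtype, in CPM on a log axis. Each point is 1 mouse and each bar the mean of 4 mice. The type IC points of the 5 markers lie above all others, while Calb2 falls from type IA through IB to IC and Calb1 stands out in type IB.

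The 6 genes given as type IA markers were all lower in type IC than in the mean of types IA and IB, and in 5 of them every type IC mouse lay below every other mouse, which held for 4.01% of genes tested. Calb2, which encodes calretinin, stood at 782, 669.8, 842 and 583 CPM in type IC, compared with 2458 ± 287 in type IB and 9866 ± 844 in type IA. Calretinin transcripts were nevertheless found in nearly every type IC cell, with a median of 12, 7, 11 and 6 UMIs per cell in mice 1 to 4 and no UMI in 0.243% to 3.00% of cells. Rxrg, a retinoid X receptor gene, stood at 4.59 ± 0.773 CPM in type IC and 54.8 ± 6.87 in type IA. The exception was Tmem132c, a transmembrane protein gene at 1.56 to 2.52 CPM in type IC and 1.04 to 3.02 in type IB, where the groups overlapped. Of the 4 type IB markers Ttn stood at 5.1 ± 1.18 CPM in type IC and Lrrc52 at 2.33 ± 1.02, near their type IA levels of 3.85 and 2.32. Calb1 stood at 9.07 ± 2.08 CPM in type IC (7.13 to 11.5), above type IA (3.62 to 6.53) and far below type IB (66.6 ± 5.49). Lypd6, a relative of Lypd1, was intermediate in type IC at 10.7 ± 2.32 CPM, between 3.5 in type IA and 20.5 in type IB.

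Markers of other cells were compared in the same way. The 10 satellite glia markers summed to 2030.4 to 2336 CPM in type IC, 2046 to 2393 in type IB and 1891 to 2309 in type IA, and 1 of them was called higher in type IC. The 10 Schwann cell and myelin markers summed to 3287 to 3743 CPM in type IC and 3020.2 to 3303 in type IA, and none was called by edgeR. In type IB the Schwann sum was 3345 to 3694 CPM, so glial transcripts were present in the sums of all 3 subtypes. Of 13 hair cell markers only Cib2, a calcium- and integrin-binding protein gene, and Otof, the otoferlin gene of hair cell synapses, passed the filter on low counts. Cib2 stood at 269 to 308 CPM in type IC against means of 174 in type IB and 114 in type IA, while Otof (0.88 CPM), Myo7a (0.137) and Slc17a8 (0.592) were near 0 in type IC. Among the 12 pan-neuronal and type I markers 3 were higher and 5 lower. Rbfox3, which encodes the neuronal nuclear protein NeuN and was picked out after its values were seen, stood at 133 to 144 CPM in type IC against means of 66.3 in type IB and 23.4 in type IA.

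Within the annotated cells, detection of the markers depended on depth, so every cell was also thinned to 4215 UMIs, and 126 shallower type IC cells were left out. At that depth 98.5% ± 0.741 (SD, n = 4) of type IC cells had a Lypd1 UMI, 49.96% ± 2.61 a Pou4f1 UMI, 48.2% ± 2.77 a Cd164l2 UMI, 28.4% ± 3.44 a Ccdc109b UMI and 16.4% ± 0.742 a Grm8 UMI. Before thinning the shares were 98.6%, 80.2%, 78.5%, 60.3% and 43.5%. Lypd1 was thus the 1 marker that could be read in almost every single cell, and the other 4 missed many cells at this depth.

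A Lypd1 UMI was also found in 37.9% ± 3.22 of thinned type IB cells and 32% ± 4.48 of type IA cells. For Pou4f1 the shares were 10.4% ± 0.799 and 3.07% ± 0.108, for Cd164l2 9.38% ± 2.1 and 7.56% ± 0.824, and for Grm8 1.46% ± 1.22 and 0.93% ± 0.587. Whether such UMIs came from the cell itself or from free RNA in the droplets was not tested. At the thinned depth 98.8% ± 0.467 of type IC cells had at least 1 of the 5 markers and 84.7% ± 2.95 at least 2. At least 2 were found in 10.7% ± 0.402 of type IB and 4.64% ± 0.558 of type IA cells. Such shares depend on how often each marker is found alone. Whether the markers met in a cell more often than that was not tested. All 5 were found together in 1.09% of thinned type IC cells and in 24.3% ± 7.53 before thinning. The Lypd1 count of single type IC cells was broad, with a median of 55, 38, 44 and 29 UMIs in mice 1 to 4 and a central range of 30 to 81 UMIs in mouse 1 and 15 to 43 in mouse 4. Between 0.928% and 2.14% of type IC cells per mouse had no Lypd1 UMI.

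Across all genes, type IC sums were compared with the mean of types IA and IB in 1 edgeR model with the mouse as a block. A gene was called at a Benjamini-Hochberg adjusted p under 0.05, and differences are log2 values ± SE. The mean is that of the log2 levels of types IA and IB, not of their CPM. A very low level in 1 of them therefore makes the difference larger than against the mean CPM. Of 13005 genes tested 1693 were higher in type IC (13.0%) and 1696 lower (13.0%), and without the mouse block 1723 passed in all. At least 2-fold differences were called in 199 higher and 129 lower genes. Against type IA alone 16.0% of genes were higher and 16.3% lower, and against type IB 5.57% were higher and 6.44% lower. Without the mouse block the calls against type IA numbered 2396, from 4212, and those against type IB 617. Leaving out mouse 3 reduced the calls against type IB from 1562 to 985. The labels belong to these same cells and may rest on the same counts, so these calls describe the annotated cells and are no independent evidence, and nothing is read from a list's count set against these percentages.

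In most called genes the mean CPM of type IB lay between those of types IC and IA. This held for 1412 of the 1693 higher and 1283 of the 1696 lower genes, and for 174 of the 199 genes that were at least 2-fold higher. The order was read from mean CPM, without a test of either step. Its share over all genes tested is not given here, so these counts are not read as an excess. In 620 genes type IC was called higher than both other subtypes and in 630 lower than both. The plot of pairwise differences shows a cloud that is flatter than the diagonal, with type IC further from type IA than from type IB.

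**Figure D2:**
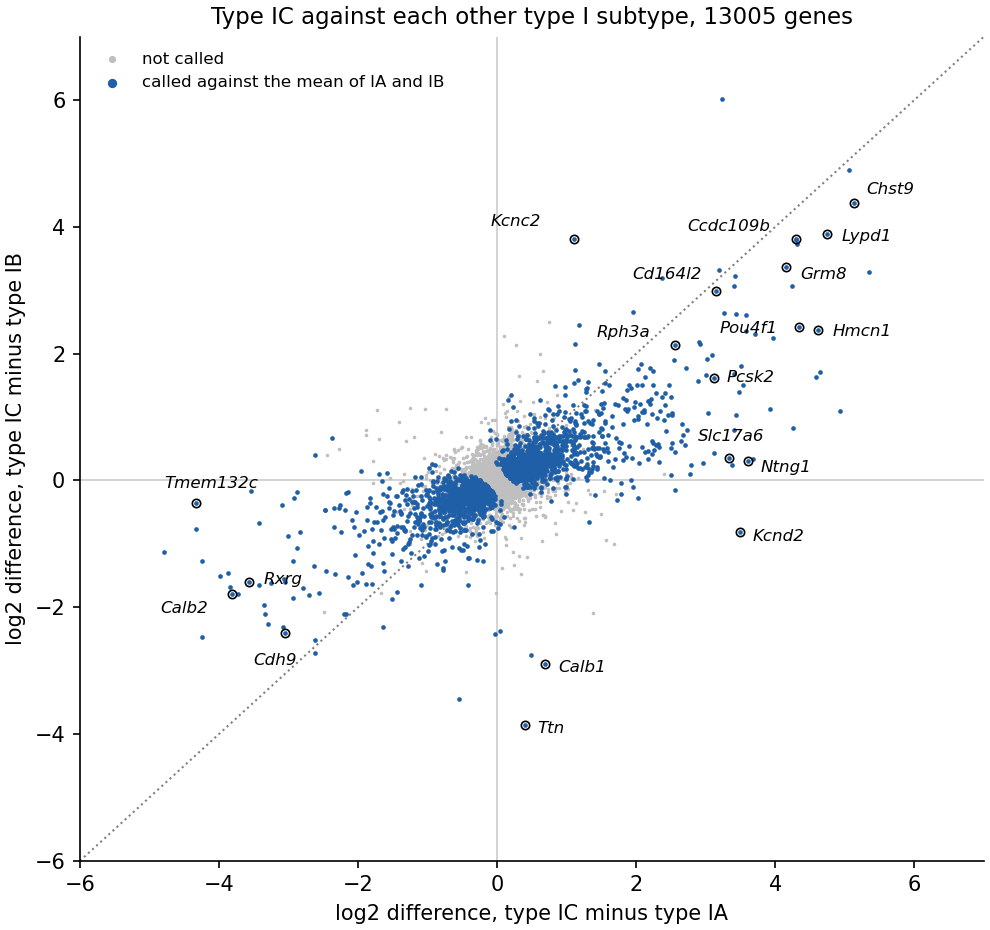
Log2 difference between type IC and type IA (x axis) and between type IC and type IB (y axis) for 13005 genes, each point 1 gene, with genes called against the mean of both in blue and named genes ringed. Genes on the dotted diagonal differ from both subtypes by the same amount. Chst9, Lypd1 and Ccdc109b lie near it at the upper right, Ntng1 and Slc17a6 near the horizontal axis, and Ttn and Calb1 near the vertical axis at the bottom.

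Among the 12 genes with the highest differences that passed the test against each other subtype and against their mean was Chst9, an N-acetylgalactosamine sulfotransferase gene. It stood at 20.1, 14.4, 21.1 and 22 CPM in type IC of mice 1 to 4, against 0.868 ± 0.195 in type IB and 0.507 ± 0.12 in type IA (log2 difference 4.75 ± 0.18, adjusted p = 9.11e-39). The difference was 4.31 ± 0.22 for Lypd1 (adjusted p = 2.70e-09) and 4.05 ± 0.08 for Ccdc109b (adjusted p = 2.10e-57). These were separated from both other subtypes by similar amounts, with differences from type IB of 4.38, 3.88 and 3.81 and from type IA of 5.13, 4.74 and 4.30. Rare transcripts were also nearly restricted to type IC sums. Ndst4, a heparan sulfate sulfotransferase gene, had 55 UMIs in type IC, 5 in type IA and none among 21631826 UMIs in type IB, so it was at least 13.4-fold higher than in type IB, against a floor of 3 counts over the group, or 0.139 CPM. Galntl6, which encodes an N-acetylgalactosaminyltransferase-like protein, had 75 UMIs in type IC, 5 in type IB and 1 in type IA. Its difference from type IB missed the threshold in DESeq2 (adjusted p = 0.107). Its ratio to type IA was 75.8, with a counting interval of 13.2 to 3034.

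Glis1, a zinc finger transcription factor gene, stood at 12.9, 9.61, 11.9 and 14.9 CPM in type IC against 0.871 ± 0.347 in type IB (4.04 ± 0.19 from the mean). Diras2, a Ras-family GTPase gene, stood at 5.37 ± 1.22 CPM (4.02 ± 0.28), Ptchd4, a patched domain gene, at 5.82 ± 1.2 (3.65 ± 0.28), and Samd11, a sterile alpha motif gene, at 7.18 ± 0.997 (3.32 ± 0.23). Hmcn1 encodes hemicentin 1, a large extracellular matrix protein, and stood at 52.9, 57.1, 66.9 and 55.2 CPM in type IC, 10.9 ± 1.69 in type IB and 2.19 ± 0.866 in type IA. In each of these 5 genes the type IC mice lay above all others, and in Hmcn1 every type IB mouse also lay above every type IA mouse.

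The 12 genes with the lowest differences included several of cell adhesion and synapses. Cdh9, a classical cadherin gene, stood at 7.55, 5.59, 7.7 and 7.09 CPM in type IC, 37.1 ± 6.03 in type IB and 58 ± 10.4 in type IA (-2.73 ± 0.10, adjusted p = 3.50e-40). Nrxn3, which encodes the presynaptic organiser neurexin 3, stood at 1.96, 2.35, 3.6 and 5.03 CPM, against 15.9 ± 3.96 and 26.8 ± 7.59 (-2.70 ± 0.15). The groups did not overlap for either gene, and mouse 4 was highest for Nrxn3 in every subtype. Dlgap2, a postsynaptic scaffold gene, held only 7 type IC UMIs (-2.73 ± 0.48), and without mouse 1 its difference from type IB was -1.59 with an adjusted p of 0.161. Pcdh20, a protocadherin gene, stood at 5.72 ± 1.46 CPM against 85.7 ± 14.8 in type IA (-2.67 ± 0.12). B3gat1, whose enzyme makes the HNK-1 carbohydrate of adhesion molecules, stood at 12.7 ± 1.48 CPM against 242 ± 21.6 (-2.75 ± 0.17).

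Cacna1b, the pore subunit gene of N-type calcium channels, stood at 1.26, 0.782, 0.994 and 1.12 CPM in type IC, 2.85 ± 0.861 in type IB and 16.6 ± 2.48 in type IA (-2.75 ± 0.23). Calb2 was lower (log2 difference -2.81 ± 0.34, adjusted p = 2.66e-05), and its difference from type IB (-1.79 ± 0.35, adjusted p = 0.00361) missed the threshold without mouse 3 (-1.84, adjusted p = 0.0651). The epoxide hydrolase gene Ephx4 (-2.78 ± 0.13) and the metalloprotease gene Adamts19 (-2.67 ± 0.28) were lower too. Adamts19 had the same low level in type IC relative to both other subtypes, with differences of -2.71 from type IB and -2.62 from type IA. Naip5 (-3.35 ± 0.40) and Naip6 (-2.65 ± 0.51), inflammasome receptor genes, are near-identical copies with 8 and 5 type IC UMIs, so the split of counts between them is uncertain, and both lost a call against type IB. Naip6 missed the threshold without mouse 1, without mouse 4, without the mouse block and in DESeq2 (adjusted p = 0.0625 to 0.0786), and Naip5 after thinning (adjusted p = 0.0792).

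Function lists of genes were then read by their members. The median log2 difference over all 13005 genes was 0.0039, and a list's median is given beside it as a description. Of 71 transcription factor genes tested 22 were higher and 15 lower, with a median of 0.01, and 14 were higher without the mouse block. Pou4f1 led with 3.38 ± 0.07. Neurod1, a basic helix-loop-helix factor of neuronal differentiation, stood at 4.06, 4.92, 5.84 and 4.29 CPM in type IC compared with 1.04 to 1.51 in type IB and 0.0985 to 1.16 in type IA (2.53 ± 0.25). Casz1, a zinc finger factor gene, stood at 12.4, 12.7, 15.7 and 12.7 CPM in type IC, with mouse 3 highest, compared with 45.6 ± 5.41 in type IB and 36.3 ± 2.26 in type IA (-1.60 ± 0.08). Rxrg was lower (-2.59 ± 0.12). Type IC mice did not overlap the other subtypes for any of these 4 genes.

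Ion channel genes moved in both directions. Of 42 potassium channel genes tested 16 were higher and 9 lower (median 0.14). Kcnc2, a Kv3 channel gene of fast-firing neurons, stood at 10.2, 7.04, 10.9 and 7.09 CPM in type IC, 3.12 to 4.49 in type IA and only 0.464 to 0.783 in type IB (2.46 ± 0.20), so the lowest level was in type IB. Kcnj9, a subunit of G protein-gated inward rectifiers, stood at 10.9, 9.95, 9.57 and 13.2 CPM against 5.36 ± 1.48 and 0.95 ± 0.342 in types IB and IA (2.24 ± 0.17). Kcnk3, a leak channel gene, stood at 12.4, 11.3, 11.1 and 10.8 CPM against 4.25 ± 0.784 and 2.33 ± 0.827 (1.83 ± 0.14). Kcnd2, which encodes the A-type channel Kv4.2, lay between the other subtypes, at 6.71, 8.61, 7.95 and 10.8 CPM in type IC. It stood at 12.8 to 18.8 CPM in type IB and 0.625 to 0.754 in type IA. Its type IC level was above the mean of their log2 levels (1.33 ± 0.17) and below type IB (-0.82 ± 0.13, edgeR adjusted p = 9.18e-07). After thinning the difference from type IB missed the threshold (-0.50, adjusted p = 0.206).

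Of 14 sodium and HCN channel genes tested 4 were higher and 4 lower, with 2 higher after thinning or with equal cell numbers and 2 lower without the mouse block. Nalcn, the sodium leak channel gene, stood at 21.3, 22, 21.6 and 23.5 CPM in type IC, 15 ± 2.08 in type IB and 3.26 ± 0.844 in type IA (1.63 ± 0.10). Scn2b, a sodium channel beta subunit gene, stood at 32.9, 31.7, 42.5 and 43.6 CPM, against 25.5 ± 5.86 and 7.43 ± 1.76 (1.43 ± 0.08). Both were graded over the subtypes and did not overlap with type IA. Hcn3, a hyperpolarization-activated channel gene, was lower (-0.91 ± 0.17, adjusted p = 1.64e-05) and missed the threshold after thinning (-0.44, adjusted p = 0.319). Of 34 genes of calcium channels and stores 9 were higher and 5 lower, with 5 higher without the mouse block and 3 lower after thinning. Ryr3, a ryanodine receptor gene that encodes a calcium release channel of the endoplasmic reticulum, stood at 14.8, 14.8, 13.9 and 16.2 CPM in type IC and 1.01, 1.08, 1.01 and 1.46 in type IA (2.01 ± 0.14), while type IB at 11.9 ± 1.47 missed the threshold against type IC (adjusted p = 0.0696, log2 difference 0.33 ± 0.12). Cacna1h, a T-type calcium channel gene with 8 type IC UMIs, was lower (-2.33 ± 0.45).

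Of 20 glutamate receptor genes tested 7 were higher and 3 lower (median 0.14), and 4 were higher after thinning. Beside Grm8 (3.76 ± 0.10), Grik4, a kainate receptor subunit gene, stood at 37.1, 39.8, 41.8 and 35.6 CPM in type IC, 26.1 to 28 in type IB and 14.3 to 15.2 in type IA (0.95 ± 0.07). Cacng5, an AMPA receptor auxiliary subunit gene, stood at 4.34, 2.57, 2.49 and 4.29 CPM against 0.579 to 1.25 in type IA (1.58 ± 0.27), and its highest type IB mouse, at 2.87 CPM, overlapped type IC. Of 24 inhibitory, cholinergic and peptide receptor genes and their modulators 6 were higher and 3 lower, and 1 was lower after thinning. Drd1, a dopamine receptor gene, stood at 21.3, 19.2, 20.6 and 23.7 CPM in type IC compared with 9.36 ± 2.18 in type IB and 6.14 ± 1.47 in type IA (1.47 ± 0.10). Chrna4, a nicotinic receptor subunit gene, was lower with 10 type IC UMIs (-2.24 ± 0.43).

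Of 24 genes of calcium-binding proteins 8 were higher and 4 lower, with 5 higher without mouse 2. Ncald, which encodes the neuronal calcium sensor neurocalcin delta, stood at 19.7, 21.6, 22.1 and 17.9 CPM in type IC, 6.26 to 13 in type IB and 1.87 to 4.92 in type IA (1.64 ± 0.18). Of 51 synaptic vesicle and release genes 13 were higher and 7 lower, with 8 higher without the mouse block or without mouse 2, and 4 lower without the block or with equal cell numbers. Rph3a encodes rabphilin 3A, a vesicle protein that binds RAB3, and stood at 129, 100.3, 141 and 127 CPM in type IC compared with 25.6 to 30.8 in type IB and 17.6 to 22.1 in type IA (2.35 ± 0.07, adjusted p = 2.25e-27). The type IC mice were all at least 100 CPM and no other sum reached 31. Slc17a6, the gene of the vesicular glutamate transporter VGLUT2, stood at 216, 178, 213 and 222 CPM in type IC, 160.4 ± 11.7 in type IB and 19.8 ± 1.1 in type IA (1.85 ± 0.05). Slc17a7, the gene of VGLUT1, stood at 354 to 402 CPM in type IC, with means of 433 in type IB and 467 in type IA. Cplx2, a complexin gene, stood at 13.4, 11.1, 16.3 and 15.7 CPM (1.70 ± 0.15) and Cpne6, a calcium-dependent phospholipid-binding protein gene, at 116, 127, 117 and 125 (1.18 ± 0.06), and the groups did not overlap for either.

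Of 50 axon guidance genes tested 16 were higher and 12 lower. Ntng1 encodes netrin G1, a membrane-anchored relative of the netrins, and stood at 317, 294, 311 and 308 CPM in type IC, 259.8, 233, 232 and 268 in type IB and 24.7, 25.5, 24.5 and 23.1 in type IA (1.96 ± 0.05). Most of this difference was from type IA (3.62 ± 0.07), and the step from type IB was 0.30 ± 0.06 (adjusted p = 2.02e-05). The secreted ligand genes Sema3a (16.8, 15.4, 16.9 and 14 CPM, 1.77 ± 0.13) and Slit2 (11.6, 7.71, 9.44 and 12.5 CPM, 1.72 ± 0.16) and the ephrin receptor gene Epha3 (2.94, 3.13, 3.36 and 3.54 CPM, 1.61 ± 0.26) were higher too. Of 64 genes of cell adhesion and synaptic organisers 22 were higher and 14 lower, with 9 lower after thinning.

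Of 26 genes of neurotrophic signalling 3 were higher and 8 lower (median -0.15, and between -0.21 and -0.13 with a mouse left out), and 1 was higher after thinning. Bdnf, the gene of the neurotrophin BDNF, had 29 type IC UMIs, at 0.979, 0.447, 0.994 and 1.86 CPM against 0.189 to 0.497 in type IB, and the groups overlapped (1.79 ± 0.46, adjusted p = 0.00155). Ngfr, the p75 neurotrophin receptor gene, stood at 73.9, 77.5, 84.1 and 77.8 CPM in type IC, 109 ± 8.42 in type IB and 136 ± 8.18 in type IA (-0.64 ± 0.05), with no overlap. The fibroblast growth factor gene Fgf1 (-0.44 ± 0.07) and Il6st, the shared receptor subunit of the interleukin 6 family (-0.42 ± 0.05), were lower by smaller steps. All of 7 called genes among 14 tested neuropeptide and granin genes were higher (median 0.24, 0.07 after thinning). Pcsk2, a prohormone convertase gene, stood at 129, 114, 137 and 125 CPM in type IC, 40.7 ± 1.76 in type IB and 13.8 ± 3.22 in type IA (2.37 ± 0.09). Cpe, the carboxypeptidase E gene of the same processing route, was higher by 0.38 ± 0.06, and the granin gene Chgb, at 840.5 ± 79.4 CPM in type IC and 825 ± 52.8 in type IB, was higher against type IA (0.69 ± 0.07) and missed the threshold against type IB (0.01 ± 0.07, adjusted p = 0.945). Edn2, an endothelin gene, stood at 3.5, 4.02, 3.73 and 3.73 CPM in type IC and 0.208 to 0.579 in type IA (1.81 ± 0.26).

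All 13 mitochondrially encoded genes were lower in type IC than in the mean of types IA and IB, with a median of -0.38 (-0.40 after thinning), and 7 of them passed without the mouse block. mt-Nd2, a complex I subunit gene, stood at 1292, 1087, 1183 and 991 CPM in type IC, compared with 1478 ± 153 in type IB and 1603 ± 154 in type IA (-0.45 ± 0.08). mt-Atp6, an ATP synthase subunit gene, stood at 15242, 13706, 15115 and 14838 CPM, against 18200.3 ± 1191 and 21175 ± 1741 (-0.43 ± 0.11). The shares were lowest in the subtype with the most UMIs per cell, at a mean over mice of the median of 15802 UMIs in type IC, 14541 in type IB and 13166 in type IA, and the part of depth or RNA quality in the result was not tested. Of 75 nuclear genes of oxidative phosphorylation 4 were higher and 3 lower, with a median of 0.0026. With type I sums only in the fit these counts were 16 and 13, without the mouse block or without mouse 3 they were 1 and 0, and after thinning 8 and 5. DESeq2 gave 9 higher genes, leaving out mouse 2 gave 1, and leaving out cells with 3 or more Fabp7 UMIs gave 2. Of 32 axonal cytoskeleton genes 5 were higher and 5 lower, among them the ankyrin gene Ank2 (-0.43 ± 0.09) and the neurofilament-related gene Ina (-0.34 ± 0.05) lower and the tubulin gene Tuba1b higher (0.37 ± 0.06). Without the mouse block 3 were higher and 2 lower, without mouse 3 3 were higher, after thinning 8 were lower, and with type I sums only 9 were higher and 10 lower. Of 34 immediate early and dissociation genes 4 were higher and none lower, with 2 higher without mouse 1 or with equal cell numbers, 1 without the mouse block or after thinning, and 9 with type I sums only. Npas4, an activity-induced transcription factor gene, stood at 1.12, 3.58, 2.86 and 3.73 CPM in type IC and 0.377 to 1.04 in type IA (1.61 ± 0.30), and its mice overlapped those of type IB (0.464 to 2.87).

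Cell-to-cell variation within type IC was measured by overdispersion, the variance of a gene over the cells of a mouse beyond counting noise, relative to the squared mean. It is 0 where cells differ by counting alone and 1 where the SD of the true level over cells equals its mean. Of 6872 genes with at least 0.2 UMIs per type IC cell in every mouse, 2107 (30.7%) had a value above 0 in all 4 mice. The median was 0.0283 in type IC, and 0.0390 after thinning. Over the same genes it was 0.0338 in type IB and 0.0435 in type IA before thinning. The genes were chosen by their type IC counts and depth differed between subtypes, so these medians do not rank the subtypes. Overdispersion was over 1 in every mouse for 8 genes, 4 of which also passed 1 in every type IA and IB mouse, and without mouse 1 for 13 genes. Of the type IC markers Lypd1 reached 0.0752 ± 0.0168 (SD, n = 4), Grm8 0.00963 ± 0.0673, Ccdc109b 0.107 ± 0.070, Pou4f1 0.213 ± 0.0238 and Cd164l2 0.233 ± 0.0454. Grm8 was below the median of all genes and the other 4 above it. The markers were part of the choice of cells, so these values are a description.

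Serpinb1a, a serine protease inhibitor gene (chromosome 13, 32842092 to 32851185, minus strand), had the largest mean of the 6872 genes, with an overdispersion of 5.77, 5.71, 6.38 and 5.74 in mice 1 to 4. It had a UMI in 20.9%, 19.4%, 14.1% and 16.1% of type IC cells, and the highest 5% of cells held 59.3% ± 2.68 of its UMIs. A minority of type IC cells thus carried most Serpinb1a transcripts in each mouse, with up to 16 UMIs in 1 cell. Its mean level was 30.5, 31.5, 16.4 and 22.6 CPM in type IC, 4.81 to 23.2 in type IB and 1.13 to 3.54 in type IA (2.11 ± 0.12), with types IC and IB overlapping and mouse 3 lowest in every subtype. Cxcr4, a chemokine receptor gene, reached an overdispersion of 3.1, 3.76, 2.62 and 3.71, with a UMI in 16.2% to 25.5% of cells. Rasgrf1, a Ras guanine nucleotide exchange factor gene, reached 1.39, 0.934, 2.15 and 1.51, and its level was 37.4 ± 8.61 CPM in type IC compared with 20.1 ± 7.83 in type IB and 7.74 ± 4.62 in type IA. Lhx1os, a non-coding RNA gene, reached 1.56, 1.15, 1.06 and 1.39 at a level of 95.1 ± 12.4 CPM, with a UMI in 40.3% to 49.5% of cells. These 4 genes had values near or above 1 in every mouse. The largest share of a mouse's UMIs in a single cell was 9.09%, for Serpinb1a in mouse 4. For Cxcr4 uneven spread was not particular to type IC. The highest 5% of cells held 48.7% of Cxcr4 UMIs in type IC, 47.5% in type IB and 47.9% in type IA. For Rasgrf1 the shares were 37.4%, 57.9% and 83.4%. For Serpinb1a they were 80.9% in type IB and 100% in type IA, where its UMIs were fewer. Where fewer than 5% of cells hold a UMI, such a share is 100% whatever the spread. In type IA 97.2% of cells had no Serpinb1a UMI and 92.8% no Rasgrf1 UMI. For Rasgrf1 and Serpinb1a the shares therefore do not compare spread between subtypes.

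The other variable genes were of different kinds. The matricellular genes Cyr61 (1.35 ± 0.402) and Ctgf (1.89 ± 0.963), both targets of YAP signalling, the collagen gene Col27a1 (1.53 ± 0.301), the steroid dehydrogenase gene Hsd17b14 (1.27 ± 0.39) and Spry2, a feedback inhibitor gene of receptor tyrosine kinase signalling (1.27 ± 0.099), varied in all mice. Ceacam10, a cell adhesion gene of the CEA family, reached 1.39, 1.55, 1.77 and 1.27, and over type IC cells it correlated with the myelin gene Mbp (r = 0.27, mean of 4 mice). With Mbp its mean r was 0.24 in type IB and 0.22 in type IA. The part of glial RNA in its variation was not tested. In other genes 1 type IC cell held a large part of a mouse's UMIs. It was 17.7% for Hba-a1 and 16.0% for Otos in mouse 3, 10.1% for Dcn in mouse 4 and 8.78% for Aebp1 in mouse 2. Overdispersion was not computed without such cells, here or for Serpinb1a. Hba-a1 is a haemoglobin gene, Otos encodes otospiralin of cochlear fibrocytes, and Dcn and Aebp1 are genes of connective tissue.

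**Figure D3:**
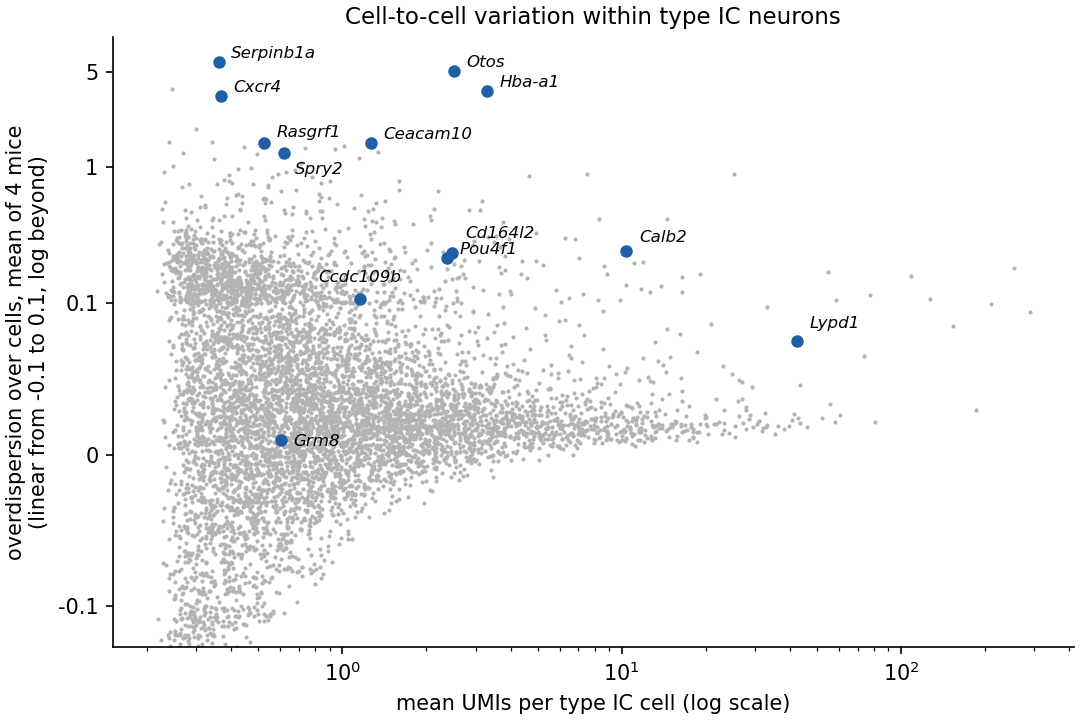
Overdispersion of 6872 genes over type IC cells (mean of 4 mice, y axis, linear from -0.1 to 0.1 and logarithmic beyond) against the mean UMIs per type IC cell (log x axis), each point 1 gene. Named genes are in blue. Serpinb1a and Cxcr4 stand at the top left with few UMIs per cell, and Lypd1 lies at 0.0752 with over 40 UMIs per cell.

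Genes that varied with Lypd1 over the cells of a mouse were found by Pearson's r of log2(1 + UMIs per 10000 UMIs of the cell). These correlations are descriptions over 412 to 686 cells a mouse, and the points share a library and differ in depth. Lypd1 itself correlated with the UMIs of a cell at 0.399 (mean of 4 mice). The highest values were for the calmodulin gene Calm2, at 0.51, 0.36, 0.48 and 0.44 in mice 1 to 4, the stathmin gene Stmn3 (mean 0.42), the parvalbumin gene Pvalb (0.41), the neuronal transgelin gene Tagln3 (0.39) and the respiratory chain genes Cox5a (0.39) and Ndufa4 (0.38). Calm2 also correlated with depth, at 0.542. The lowest values were for mitochondrially encoded genes, with mt-Atp6 at -0.44, -0.39, -0.40 and -0.39 and mt-Co3, mt-Co2, mt-Co1, mt-Nd4 and mt-Nd1 between -0.40 and -0.37, and mt-Atp6 correlated with depth at -0.665. After thinning all cells to 1 depth the means moved to 0.28 for Calm2 and -0.32 for mt-Atp6, with the same signs in every mouse. Of 6871 genes 1390 had a mean r over 0.1 with the same sign in every mouse and 55 a mean under -0.1, and after thinning 114 and 22.

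The other markers followed Lypd1 weakly over type IC cells. The mean r was 0.24 for Cd164l2, 0.23 for Pou4f1, 0.22 for Ccdc109b and 0.10 for Grm8, and 0.13, 0.09, 0.09 and 0.03 after thinning. In the same order the means before thinning were 0.11, 0.26, 0.19 and 0.14 in type IB and 0.07, 0.14, 0.09 and 0.08 in type IA. Values this low in sparse counts say little about single cells. Calb2 was the exception in sign, at -0.32, -0.33, -0.30 and -0.15 in mice 1 to 4 and a mean of -0.18 after thinning. Within type IC the cells with more Lypd1 thus tended to have fewer calretinin UMIs. The sign was the same in type IB, with a mean of -0.18 (-0.155 after thinning), and in type IA, with -0.10 (-0.07 after thinning). It was therefore not particular to type IC. Calb2 had nearly no correlation with depth, at 0.036.

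**Figure D4:**
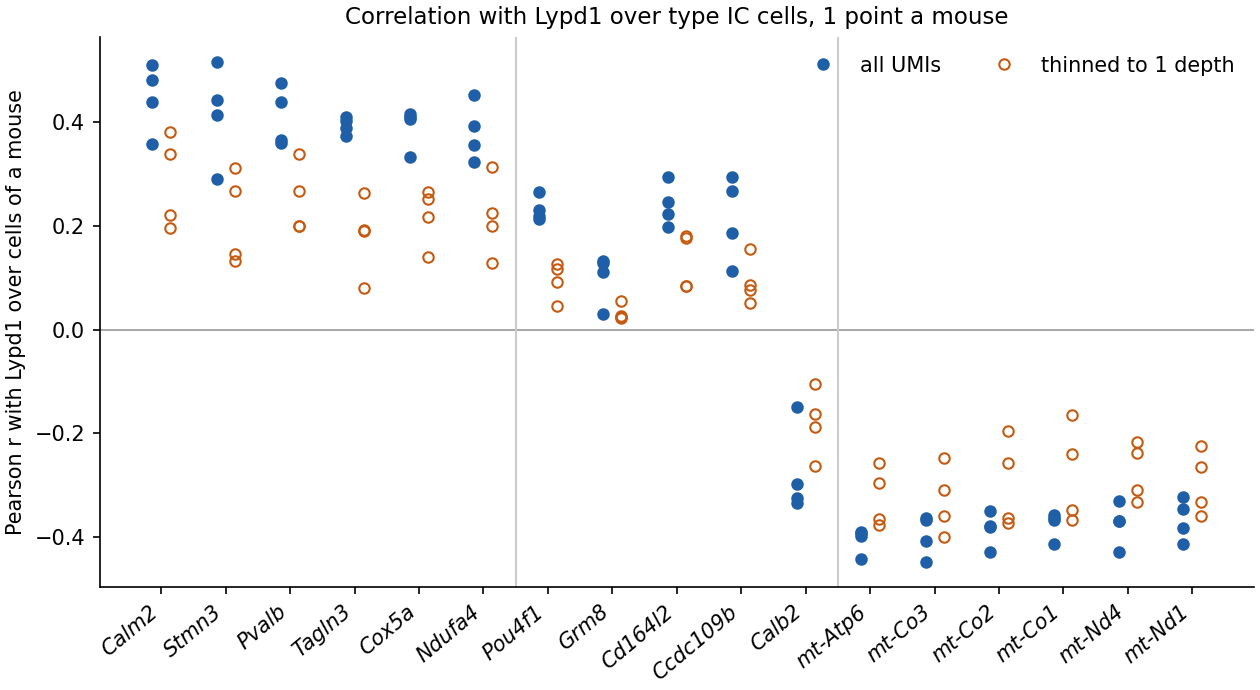
Pearson's r with Lypd1 over the type IC cells of each mouse (y axis) for the 6 highest genes, the other markers with Calb2, and the 6 lowest genes, with 1 point a mouse. Filled points use all UMIs and open points cells thinned to 4215 UMIs. Calm2 and its neighbours stay above 0 and the mitochondrially encoded genes below 0 at both depths, closer to 0 after thinning.

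Between mice most genes of type IC varied little. Of 8964 genes with at least 50 type IC UMIs in every mouse, the median coefficient of variation (CV) of CPM over the 4 mice was 7.0%, and 3.49% once counting noise was subtracted. The corrected CV was over 50% for 20 genes, and without mouse 4 for 11. Since a mouse is 1 sample, a difference between 2 mice has no replicate and no test. The 10 genes with the largest values fell into 2 kinds, those high in mouse 4 and those high in mouse 1.

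In mouse 4 genes of blood cells were high. S100a8, a neutrophil gene, stood at 15.5, 13.6, 7.58 and 264 CPM in type IC of mice 1 to 4 (corrected CV 167%), and its partner S100a9 at 11.6, 9.39, 7.58 and 181. An S100a8 UMI was found in 5.72%, 1.404%, 3.66% and 68.0% of thinned type IC cells, so in mouse 4 it was spread over most cells. The haemoglobin genes Hba-a1 (210.1, 117, 116 and 544 CPM), Hba-a2 (13.1, 9.84, 6.84 and 54.3) and Hbb-bt (33.2, 16.9, 14.9 and 100.3) were highest in the same mouse. The 5 red blood cell markers summed to 389 to 1836 CPM in type IC, 331 to 1724 in type IB and 367 to 1668 in type IA, and the 10 immune markers to 71.2 to 457, 68 to 513 and 67.3 to 396, each highest in mouse 4. S100a8 is itself an immune marker and gave 264 of the 457 CPM of type IC in mouse 4. Apart from S100a8, the immune markers differed widely in their highest type IC sum. It ran from 1.12 CPM for Ptprc, a gene of all white blood cells, to 36.2 for Cd74, 38.2 for Tyrobp and 76.3 for Lyz2. The part of free RNA in these values was not tested.

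In mouse 1 interferon-stimulated genes were high. Interferons act through receptors on the cell surface and turn on genes of antiviral defence. Isg15, which encodes a ubiquitin-like protein (chromosome 4, 156199424 to 156200818, minus strand), stood at 66.3, 12.6, 9.44 and 14.7 CPM in type IC of mice 1 to 4, and Ifit1 (chromosome 19, 34640871 to 34650009, plus strand), an antiviral RNA-binding protein gene, at 188, 40.3, 38 and 36. Ifi27l2a stood at 107, 14.5, 10.4 and 57.8 CPM and Ly6a at 46.2, 15.3, 8.08 and 17.3. An Ifit1 UMI was found in 45.5%, 14.7%, 13.3% and 12.5% of thinned type IC cells and an Isg15 UMI in 21.4%, 6.08%, 3.47% and 4.57%.

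A list of 36 interferon-stimulated genes, chosen after these values were seen, held 21 genes with at least 20 type IC UMIs in every mouse. Mouse 1 was highest in 20 of them, and the median ratio of mouse 1 to the mean of the other mice was 3.40. The list was drawn up because such genes stood out in mouse 1, so these values describe it and test nothing. The share of all genes with mouse 1 highest is not given here, so no count of this kind is read as an excess. The largest ratios were those of Bst2, a membrane protein gene that tethers budding virus (62.2, 5.25, 5.47 and 8.02 CPM), and of Ifit3 (41.3, 7.6, 4.47 and 4.66 CPM), a relative of Ifit1. The receptor transporter gene Rtp4 stood at 36.8, 7.6, 4.72 and 5.41 CPM and the transcription factor gene Irf9 at 36.6, 8.72, 8.82 and 8.76. Stat2 was the exception at 10.6, 8.83, 7.46 and 12.7 CPM, highest in mouse 4, and B2m, the light chain gene of class I histocompatibility molecules, differed little at 112, 96.5, 89.4 and 110.4. In the other subtypes of the same mice, mouse 1 was highest for 19 of the 21 genes in type IA, with a median ratio of 2.94, and for 19 in type IB, with 3.37.

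**Figure D5:**
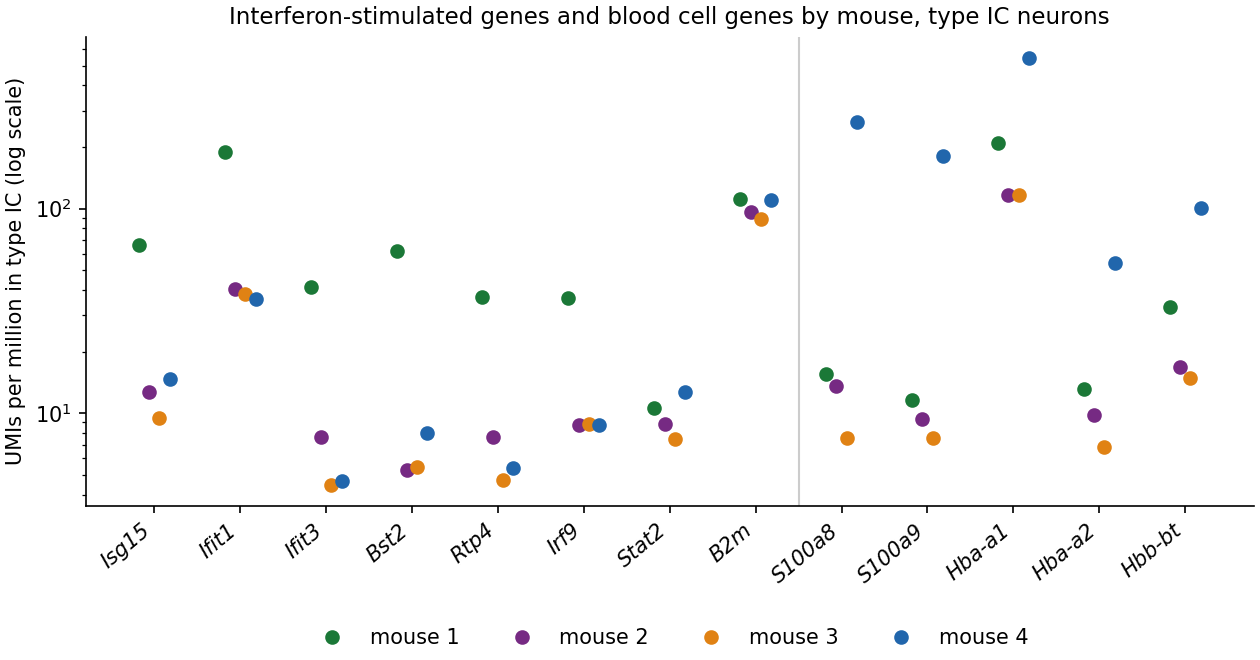
Levels in the summed type IC cells of each mouse, in CPM on a log axis, 1 point a mouse. To the left of the line are interferon-stimulated genes, highest in mouse 1 except Stat2, and to the right genes of neutrophils and red blood cells, highest in mouse 4.

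Because the raised genes are classical targets of interferon, their promoter windows were read for the motif GAAA, any 2 bases and GAAA again, a form of the interferon-stimulated response element. RefSeq windows (GRCm38.p6) of 250 bases upstream of each start were searched on both strands, with overlapping matches allowed. A match was present in 2.98% of all 32851 windows of this length. Of the 21 genes 15 had a window and 6 held a match: Isg15 (3 matches, overlapping), Ifit1 (2), Ifit3 (2), Bst2 (2, overlapping), Stat2 (1) and B2m (1). The stretches from 160 to 31 bases upstream of the start are shown for the 4 genes with at least 2 matches, 5′ to 3′ on the strand of the gene, with matches in capitals. They lie at chr4:156200849-156200978 (minus strand), chr19:34640729-34640858 (plus), chr19:34583369-34583498 (plus) and chr8:71537503-71537632 (minus).
Isg15: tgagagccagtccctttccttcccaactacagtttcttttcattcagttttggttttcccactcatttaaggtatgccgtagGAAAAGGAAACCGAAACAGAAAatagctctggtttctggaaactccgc
Ifit1: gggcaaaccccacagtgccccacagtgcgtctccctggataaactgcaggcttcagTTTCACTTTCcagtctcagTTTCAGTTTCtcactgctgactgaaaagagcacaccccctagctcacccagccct
Ifit3: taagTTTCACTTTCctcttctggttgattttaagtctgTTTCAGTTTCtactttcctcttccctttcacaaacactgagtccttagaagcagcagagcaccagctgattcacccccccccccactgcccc
Bst2: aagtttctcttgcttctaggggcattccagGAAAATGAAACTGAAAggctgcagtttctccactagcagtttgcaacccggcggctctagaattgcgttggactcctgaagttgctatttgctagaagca
In Isg15 and Bst2 the motif reads in the direction of the gene, and in Ifit1 and Ifit3 on the opposite strand, so that the capitals there show its reverse complement. Stat2, which was not highest in mouse 1, also held a match, and 9 of the 15 genes with a window held none within these bases. A match describes the letters in the window and is neither a bound site nor a cause.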

How the data were processed

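Raw UMI counts per gene and cell were deposited by the authors as 1 table per mouse, with a cell annotation, and were used as deposited. Per the submitters' processing notes, reads were processed with Cell Ranger 2.0.1 and Seurat 1.4 on mm10. The filters on cells and genes, the treatment of doublets and the assignment of subtypes are not stated in the material used, and no doublet caller was run here. The tables hold 18143 genes, 77 of them without a UMI in these cells.

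Counts were summed per mouse and population (types IA, IB, IC and II and the putative cells), giving 20 sums. Genes were filtered with filterByExpr by population, scaled with TMM and tested in edgeR 4.0.16 (R 4.3.3) by its quasi-likelihood test, with a block for each mouse, since the sums of a mouse share 1 animal. P-values were adjusted by the Benjamini-Hochberg method over the 13005 genes. The fit had 12 residual degrees of freedom and a common biological coefficient of variation of 0.0486. The test and the overdispersion estimate were first tested on simulated data. DESeq2 1.42.0, thinning, other filters, equal cell numbers, a cut at 3 UMIs of the glial gene Fabp7 and leaving out each mouse were alternatives. Leaving out cells with a barcode found in more than 1 mouse was an alternative chosen after seeing the data.

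Overdispersion is the sum over cells of the squared deviation from the count that depth predicts, less that count, divided by the sum of the squared predicted counts. Between-mouse CVs had the Poisson variance of each CPM subtracted. Intervals cover counting error only. Gene positions are from GENCODE vM21, where Ccdc109b is listed as Mcub.

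The cells and gene lists were chosen with earlier results of these data known. The text names, by a fixed rule, the 12 highest and 12 lowest genes called against types IA and IB separately and against their mean, the neuron markers, up to 4 called members of each function list, the 15 most overdispersed genes, the 10 most variable between mice, the 6 highest and 6 lowest correlations with Lypd1 and the 10 most abundant genes. Some of these genes are not reported here. Islr2 was removed from the list of transcription factors after its values were seen, because it is not one. The interferon list, Rbfox3, Slc17a7 and the pairs of correlated genes were chosen after their values were seen.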

Additional observations from a re-analysis of the deposited data

Results flagged for a closer look

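In 15 of 167 groups of 4 mice (8.98%) 1 mouse lay far from the other 3 by Dixon's criterion, which chance meets in about 1 in 20 independent groups. The groups share cells, and Ifit1, Isg15, S100a8, S100a9 and Hba-a2 were chosen for their variation between mice, so the share cannot be read against that rate. Among levels in type IC, mouse 1 stood apart in Ifit1 (188 CPM), Isg15 (66.3) and Grm8 (47, others 39.9 to 40.8). Mouse 4 stood apart in S100a8 (264 CPM), S100a9 (181), Hba-a2 (54.3) and, with the lowest value, in Tagln3 (562.2, others 599 to 605). Mouse 3 stood apart in Casz1, at 15.7 CPM with the others between 12.4 and 12.7.

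Over type IC cells the overdispersion of Serpinb1a was 6.38 in mouse 3 (others 5.71 to 5.77), that of Hba-a1 14.1 in mouse 3 (others 0.0145 to 0.166) and that of Aebp1 4.43 in mouse 2 (others 0.172 to 0.831). In the last pair 1 cell held 17.7% and 8.78% of the gene's UMIs in that mouse. A Pou4f1 UMI was found in 53.8% of thinned type IC cells of mouse 4, against 48.3% to 49.0% in the others. The correlations of 3 genes with Lypd1 also had 1 mouse apart: Cox5a was at 0.33 in mouse 2, mt-Atp6 at -0.44 in mouse 1 and mt-Co1 at -0.41 in mouse 1, each with the same sign in all mice.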

How the results depend on the processing

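Without the replicate block, which pairs the sums of 1 animal, 1723, 2396 and 617 genes were called against the mean, type IA and type IB, and after thinning 2001, 2567 and 906. DESeq2 called 1028 genes against type IB, where leaving out each mouse gave 985 (without mouse 3) to 1465. No named gene changed direction under any alternative run, and the cause of lost calls was not tested. Of the 102 named genes called against the mean, 13 missed the threshold without the replicate block, 10 of 88 after thinning and 3 to 10 with a mouse left out, while the block changed no call against type IA and 1 of 30 against type IB. With type I cells as the denominator the share was 34.6%. Median overdispersion was 0.039 after thinning. Genes over 1 in every mouse numbered 8 to 13 with a mouse left out (13 without mouse 1), and genes with a corrected CV over 50% 11 to 24 (11 without mouse 4). At least 2 markers were found in 94.7% of unthinned cells, and correlations with Lypd1 fell to 114 positive and 22 negative genes after thinning. Subtype labels come from these cells, mice are 4 males of 1 strain, UMIs from free RNA were not separated, and rare genes (under 20 UMIs in type IC) limit the precision of their folds.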

Other observations

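The most abundant transcripts of type IC that are neither mitochondrially encoded nor of ribosomal proteins were Malat1, a nuclear non-coding RNA, at 18004 ± 837 CPM (SD, n = 4), Fth1, the ferritin heavy chain gene, at 13043 ± 360.3, and Calm2 at 5659 ± 155. Fth1 was higher in type IC than in the mean of types IA and IB (0.39 ± 0.09, adjusted p = 5.96e-04 by edgeR), with 9212 ± 438 CPM in type IB and 10567 ± 532 in type IA. Calm2 was higher too (0.41 ± 0.09, adjusted p = 1.08e-04). Spp1, the osteopontin gene, stood at 5166 ± 263 CPM in type IC and 6657 ± 690.0 in type IA and missed the threshold (-0.24 ± 0.12, adjusted p = 0.164). The SNARE gene Snap25 (4064 ± 127 CPM), the ubiquitin gene Ubb (3682 ± 129.9) and the respiratory chain gene Cox4i1 (3256 ± 113) missed it as well. Of the 8 type II markers 2 were called higher and 2 lower in type IC, with a median log2 difference of 0.147. Prph, the peripherin gene that defines type II neurons, stood at 1.25 ± 0.153 CPM in type IC. Th (0.339 CPM), Etv4 (0.391), Cilp (0.401) and Plk5 (1.91) were low there too. Gata3 stood at 34.3 ± 3.30 CPM and Ngfr at 78.3 ± 4.27, so type II markers were not all absent from type IC.

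Other called members of the function lists held their call less firmly. The calcium-binding protein gene Cabp7 (1.17 ± 0.30) missed the threshold without mouse 2 (adjusted p = 0.0567), and the NMDA receptor subunit gene Grin3a (1.82 ± 0.59) did so without mouse 2 (1.24, adjusted p = 0.287), with equal cell numbers and after thinning. The sodium channel gene Scn9a (0.99 ± 0.27) missed it with equal cell numbers and after thinning, and Ly6h (-1.32 ± 0.26), a relative of Lypd1, after thinning. The complex I gene Ndufa8 (0.30 ± 0.05) and the scaffold gene Mapk8ip1 (0.36 ± 0.04) lost their calls under none of the alternatives run on them.

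Some genes varied together over type IC cells without following Lypd1. These pairs were chosen after their values were seen, and the r values describe cells that share a library and depth. The beta-actin gene Actb and the chromobox gene Cbx3 had a mean r of 0.74 over the 4 mice (0.70 to 0.79) and 0.57 after thinning. The same pair stood at 0.71 in type IA and 0.71 in type IB. Spry2 was correlated with Actb at 0.53 and with Cbx3 at 0.48, and Cxcr4 with Actb at 0.37. In the same order these means were 0.50, 0.41 and 0.39 in type IB and 0.47, 0.38 and 0.45 in type IA. They were therefore not particular to type IC, where the means after thinning were 0.37, 0.32 and 0.27. Pou4f1 was correlated with Actb at 0.32 in type IC, 0.07 in type IB and -0.01 in type IA, where its UMIs are few, while Lypd1 stood at 0.02 with Actb. The highest 5% of type IC cells held 22.5% of Actb UMIs, and Actb was correlated with depth at -0.14. The part of dissociation in this variation was not tested. The variable genes Serpinb1a, Rasgrf1 and Lhx1os had r of 0.03, -0.08 and -0.12 between them.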
